A study of Homo sapiens with 6 samples.

Results

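The 10 genes described here encode S100 calcium-binding proteins (S100A2, S100A3, S100A4, S100A6, S100A10, S100A11, S100A13, S100A14, S100A16 and S100P). They are taken by symbol from a table of 78932 genes counted in the T24 line, which was established from a human carcinoma of the bladder. All 10 are in the table, and 6 of them pass the count minimum used for testing, which asks for 10 counts or more in 3 or more libraries. S100 proteins are small proteins with a pair of EF-hand loops that bind calcium, and most of them work as dimers that open a binding face for a partner protein when calcium rises. Annexins, myosin and cytoskeletal scaffolds are among these partners inside the cell, and some S100 proteins are also released and bind receptors such as RAGE. Many S100 genes are epithelial, and several have been followed as markers of invasion or differentiation in carcinomas.

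TRIM28 is a corepressor that zinc finger proteins bring to chromatin. Poly(A) RNA is sequenced from 3 T24 libraries transfected with a non-targeting siRNA (siNC) and from 3 transfected with an siRNA that targets TRIM28 (siTRIM28), all given the same batch number. The labels call the libraries of a group biological replicates but do not describe how the cultures were kept apart, and the TRIM28 siRNA used in them is not named. Both groups are T24 cells grown in the same medium and differ, as labelled, in the siRNA. One cell line is 1 genetic background, and p-values measure the spread between these libraries only.

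The libraries hold between 11712623 and 14018052 counts. TRIM28 falls from 104 ± 4.09 to 8.87 ± 0.658 CPM (counts scaled to library size with TMM factors, shown as mean ± SD of 3 libraries), which is −3.54 on the log2 scale (edgeR, adjusted p = 1.03e-10). Some replicates lie closer than others. Their counts give a chi-square per degree of freedom, which is 1 for sampling noise alone, of 1.08 for siNC replicates 1 and 2 and 1.22 for siTRIM28 replicates 2 and 3, against 4.17 to 6.25 for the pairs with siNC replicate 3 or siTRIM28 replicate 1. These last 2 libraries stand apart, and siTRIM28 replicate 1 carries much of what is seen for S100A6 and S100A11 below. Of 12 urothelial and epithelial markers 4 are tested, and 3 of these rise and 0 fall after knockdown (75% called, beside 41.8% of all genes). They are uroplakin 1A (UPK1A, 0.874 to 3.41 CPM, 1.94 on the log2 scale, adjusted p = 5.48e-04), KRT7 (2.84 to 4.20 CPM, 0.56, adjusted p = 0.0126) and KRT8 (104 to 114 CPM, 0.14, adjusted p = 0.0354), and their part in the results for the S100 genes was not tested. The KRT8 call is lost in 8 of 15 alternatives, among them those without siNC replicate 1, 2 or 3 or without siTRIM28 replicate 1 or 3, and the KRT7 call with DESeq2 (adjusted p = 0.0846). UPK1A has 17, 15 and 4 counts in siNC and 58, 38 and 34 in siTRIM28, so only siTRIM28 reaches 10 counts in all 3 libraries. KRT8 and KRT18, keratins of simple epithelia, are well expressed (104 and 86.1 CPM in siNC). Summed counts in siNC and siTRIM28 are only 2 and 1 for E-cadherin (CDH1), 16 and 8 for EPCAM, and 0 and 0 for uroplakin 1B (UPK1B). GATA3 has 24 and 9, and KRT19 has 14 and 6. None of the untested markers has a higher sum in siTRIM28. Of 12 markers of immune, endothelial, stromal and other cells, CD68 alone is tested, at 348 and 351 CPM in siNC and siTRIM28, and the others stay at 30 summed counts per group or fewer.

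Of the genes 9 lie on chromosome 1 and all of these are read from the minus strand, while S100P lies on the plus strand of chromosome 4. Most of them sit in a cluster. In the deposited GRCh38 coordinates S100A6 (ENSG00000197956) spans 153534599 to 153536244, S100A4 (ENSG00000196154) 153543613 to 153550136, S100A3 (ENSG00000188015) 153547329 to 153549258 and S100A2 (ENSG00000196754) 153561108 to 153567890. S100A16 (ENSG00000188643, 153606886 to 153613145) is followed after 1109 bases by S100A14 (ENSG00000189334, 153614255 to 153616927) and then by S100A13 (ENSG00000189171, 153618779 to 153634361). S100A10 (ENSG00000197747, 151982915 to 151993859) and S100A11 (ENSG00000163191, 152032506 to 152047907) form a pair 38646 bases apart, and 1486691 bases separate S100A11 from S100A6. S100P (ENSG00000163993) spans 6693878 to 6697170. In the GENCODE v29 models the coding sequences are short, from 90 residues for S100A6 to 105 for S100A11.

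The promoters of these genes differ widely in CG dinucleotides, the sites of DNA methylation, which cluster in the promoters of broadly expressed genes. The 120 bases before the RefSeq start site (GRCh38.p14) are shown for genes at both ends of this range, each 5′ to 3′ on the minus strand, with CG dinucleotides in capitals. The sequences come from chr1:151993860-151993979 (S100A10, 14 CG), chr1:153535992-153536111 (S100A6, 13 CG), chr1:152037005-152037124 (S100A11, 11 CG), chr1:153613138-153613257 (S100A16, 0 CG) and chr1:153616326-153616445 (S100A14, 0 CG).
S100A10: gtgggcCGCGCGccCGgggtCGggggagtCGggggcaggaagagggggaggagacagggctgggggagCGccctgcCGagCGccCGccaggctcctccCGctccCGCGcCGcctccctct
S100A6: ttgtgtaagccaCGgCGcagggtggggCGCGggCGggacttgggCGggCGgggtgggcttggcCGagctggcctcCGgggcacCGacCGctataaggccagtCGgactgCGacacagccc
S100A11: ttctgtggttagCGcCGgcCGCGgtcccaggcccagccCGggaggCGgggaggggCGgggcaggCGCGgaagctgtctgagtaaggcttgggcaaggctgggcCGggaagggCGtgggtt
S100A16: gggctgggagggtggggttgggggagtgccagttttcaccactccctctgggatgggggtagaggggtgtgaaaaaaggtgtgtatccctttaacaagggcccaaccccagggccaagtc
S100A14: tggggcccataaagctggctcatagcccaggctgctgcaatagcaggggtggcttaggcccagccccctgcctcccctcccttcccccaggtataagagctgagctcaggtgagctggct
The neighbours S100A16 and S100A14 thus both lack CG dinucleotides just before the start used here, and they have the most different levels of any adjacent pair in the cluster, as given below.

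In the whole RefSeq window of 300 bases (250 before and 50 after the start) the median over 35116 promoter windows is 14 CG dinucleotides. S100A10 has 32, S100A6 has 31, S100A11 has 22 and S100A13 has 19, and 57.1% to 81.1% of all windows have fewer than these 4. The other 6 genes lie under the median, with 8 in S100A4, 5 each in S100A2, S100A3, S100A14 and S100P, and 3 in S100A16. The letters TATAAA occur on either strand of the S100A4 and S100P windows and in 11.5% of all windows. TGANTCA, the letters bound by AP-1, occurs in the S100A2 and S100A3 windows and in 7.71% of all windows. CCAAT is found for S100A3 only among the 10, and in 34.6% of all windows. RefSeq gives 2 windows each for S100A16 and S100A2 and 3 for S100A13. For these the window nearest the 5′ end of the gene in the deposited table is used, and CG counts of the others are not given here. For S100A11, S100A4 and S100A2 the start lies 10903, 4330 and 2046 bases inside that end. Which start T24 cells use is not measured here.

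Levels of different genes are compared per length, as reads per kilobase of the gene's counted length and scaled to library size (RPKM, from the deposited counts and lengths). S100A11 is the highest of the 10 in siNC, at 228 ± 6.76 RPKM (n = 3), with S100A16 at 160 ± 5.81 and S100A10 at 137 ± 4.74. Between 1.06% and 1.82% of the genes tested have a higher RPKM than these 3, which together make up 92.0% ± 0.293 of the summed RPKM of the 10 genes in siNC. S100A6 follows at 31.2 ± 0.892 RPKM, S100A13 at 12.3 ± 0.634 and S100A2 at 1.75 ± 0.291. The siNC RPKM ranges of these 6 do not overlap, so that each step in the RPKM order is larger than the spread of the libraries. The same order holds in siTRIM28, with 210.0 ± 30.5 RPKM for S100A11, 164 ± 2.10 for S100A16 and 149 (145 to 155) for S100A10, and 90.8% ± 1.58 of the sum in these 3. RPKM divides by the deposited length, which runs from 649 bases for S100A11 to 3396 for S100A13 among these 6, and which exons T24 cells use is not measured here. The order depends on these lengths. In CPM, which is not divided by length, S100A16 (271 ± 9.89 in siNC) lies above S100A11 (148 ± 4.38). S100A13 (41.9 ± 2.15) likewise lies above S100A6 (30.3 ± 0.866).

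**Figure D1:**
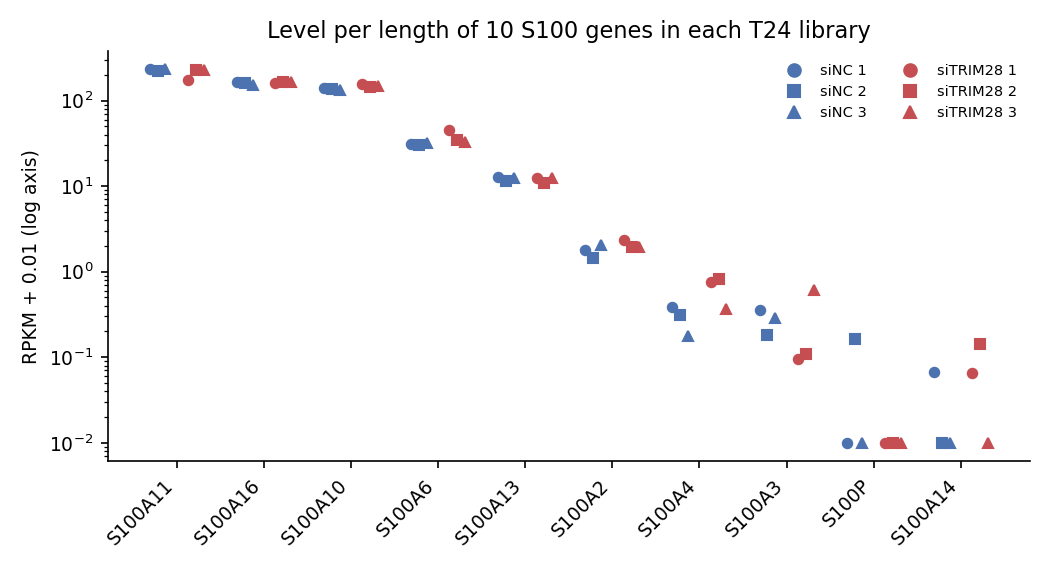
RPKM plus 0.01 on a log axis for the 10 S100 genes in each T24 library, ordered by the siNC mean, with siNC in blue and siTRIM28 in red and the symbol giving the replicate. S100A11, S100A16 and S100A10 lie above 100 RPKM in all 6 libraries, and S100A4, S100A3, S100P and S100A14 lie under 1.

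At the low end are 4 genes that were not tested. S100A4, linked to metastasis through its binding of nonmuscle myosin, has 5, 4 and 2 counts in siNC replicates 1 to 3 and 10, 9 and 4 in siTRIM28. The groups overlap, and when the count minimum is dropped edgeR puts its log2 fold change at 1.13 ± 0.539 (standard error, adjusted p = 0.162). S100A3, known from hair cuticle, has 4, 2 and 3 counts in siNC and 1, 1 and 6 in siTRIM28. Its span lies inside that of S100A4 on the same strand, and reads from the shared part cannot be assigned to 1 gene. S100A14, an epithelial S100 protein, has 1, 0 and 0 counts in siNC and 1, 2 and 0 in siTRIM28, and S100P, first found in placenta, has a single count in siNC replicate 2. A count of 3, the floor used here, correspond to 0.214 to 0.253 CPM, so S100A14 and S100P stay under the floor in every library and no change could be detected at this depth. The floor covers counting error only. The 11 S100 genes outside the set, among them S100A8, S100A9, S100A7 and S100B, reach at most 5 counts in any library, and 6 of them are at 0 throughout.

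The order of the levels and the CG content of the promoters can be set side by side. The 4 genes over the median CG count have 12.3 to 228 RPKM in siNC, and 5 of the 6 under it have 1.75 RPKM or less. S100A16 departs from this in the promoter window used, with the fewest CG dinucleotides of the 10 and the second highest RPKM. The CG count of its other RefSeq window is not given here. Its neighbour S100A14, whose promoter window also has few of them, is at 0.0188 RPKM in siNC. This is a description of 10 genes, and DNA methylation is not measured in these cells.

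**Figure D2:**
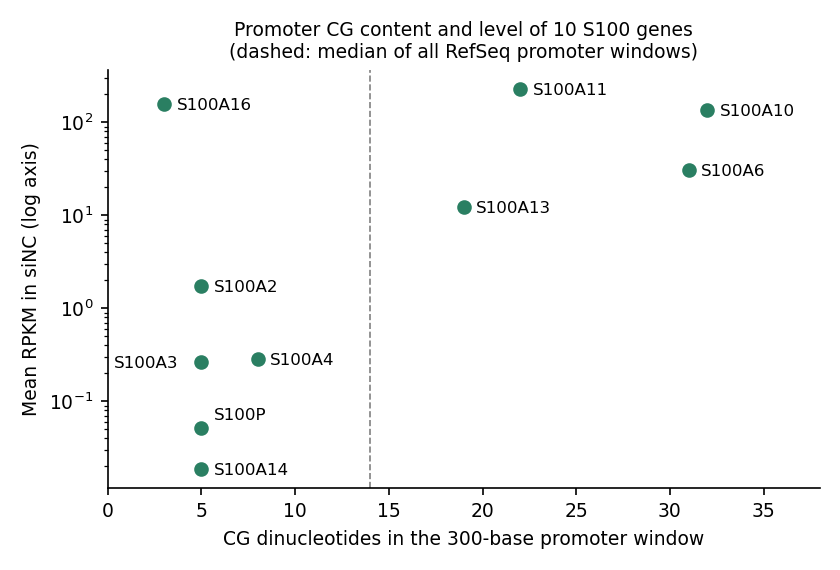
Mean siNC RPKM (log axis) against the number of CG dinucleotides in the 300-base RefSeq promoter window for the 10 S100 genes, with a dashed line at the median of all windows. S100A16 stands at the upper left with 3 CG dinucleotides in the window used and 160 RPKM, apart from the other genes with few CG dinucleotides.

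After TRIM28 knockdown 1 of the 6 tested S100 genes rises, S100A6, and 0 fall at an adjusted p under 0.05. Over all 18474 genes tested, 21.3% are called higher and 20.5% lower, 41.8% in all. No overlap between the groups is seen for 2 of the 6 genes, S100A6 and S100A10, against 52% of all genes tested. At an unadjusted p under 0.05 the same 2 genes are higher and 0 are lower, but the share of all genes at that cut is not given here. DESeq2 calls 0 of the 6 in either direction, beside 5878 of all 18474 genes tested. The median log2 fold change of the 6 is 0.08 beside 0.02 for all genes tested, and the median absolute change is 0.12 beside 0.27. These medians are not matched for level, and all genes tested include those just past the count minimum. The summed CPM of the 10 genes is 633 ± 13.2 in siNC and 646 ± 10.3 in siTRIM28 (n = 3 each), a gap about as large as the SD. In such bulk samples, a difference in how many cells express a gene and in how much each cell makes cannot be told apart.

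S100A6, also called calcyclin, is a growth-related S100 protein that binds the adaptor CACYBP. It has 29.8, 29.8 and 31.3 CPM in siNC replicates 1 to 3 and 43.6, 33.9 and 32.2 in siTRIM28. All 3 siTRIM28 libraries lie above the siNC libraries, but replicate 1 lies far above the other two. The log2 fold change is 0.28 (1.21-fold, standard error 0.101, 95% interval 0.05 to 0.50, adjusted p = 0.0462 in edgeR's quasi-likelihood test). Without siTRIM28 replicate 1 it is 0.13 (adjusted p = 0.110), and the call is also lost without siNC replicate 1, 2 or 3 (adjusted p = 0.123, 0.123 and 0.0753) and with DESeq2 (0.27, adjusted p = 0.0600). Of 15 alternatives 9 keep it. A gene on the opposite strand that overlaps S100A6 (ENSG00000238279) has 66 summed counts in siNC and 64 in siTRIM28. CACYBP itself, at 302 CPM in siNC, has a log2 fold change of 0.05 (adjusted p = 0.388).

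S100A10 differs from its relatives in that its EF-hands no longer bind calcium and it is held in a complex with annexin A2 at the plasma membrane, where the complex binds plasminogen and channel proteins. It has 143, 140 and 134 CPM in siNC and 157, 147 and 149 in siTRIM28. The siTRIM28 libraries all lie above the siNC libraries, by a small step. The log2 fold change is 0.12 (standard error 0.0458, 95% interval 0.02 to 0.22, adjusted p = 0.0568), just short of the threshold. Upper-quartile scaling (0.15, adjusted p = 0.0185), total-count scaling (0.14, 0.0335), limma-voom (0.12, 0.0495) and a stricter count minimum (0.12, 0.0464) put it past the threshold. Only these 4 of 15 alternatives do so. DESeq2 gives 0.11 (adjusted p = 0.213), and over the alternatives the adjusted p reaches 0.216. Without siTRIM28 replicate 1 the log2 fold change of S100A10 is 0.09 (adjusted p = 0.0701).

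S100A11 binds annexin A1 and is found at the membrane and in the nucleus of many epithelial cells. It has 150, 143 and 150 CPM in siNC and 113, 148 and 147 in siTRIM28. Replicate 1 alone lies below the siNC libraries, and the other two siTRIM28 libraries fall within their range. The log2 fold change is −0.12 (95% interval −0.30 to 0.07, adjusted p = 0.294), and without siTRIM28 replicate 1 it is 0.000388 (adjusted p = 0.995). On the log2 scale siTRIM28 replicate 1 differs from the mean of replicates 2 and 3 by −0.38 for S100A11 and by 0.40 for S100A6. Among 10387 genes with a mean of at least 100 counts, 7.08% and 6.43% deviate at least as far, whereas 51.1% to 83.8% do so for S100A10, S100A13 and S100A16.

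**Figure D3:**
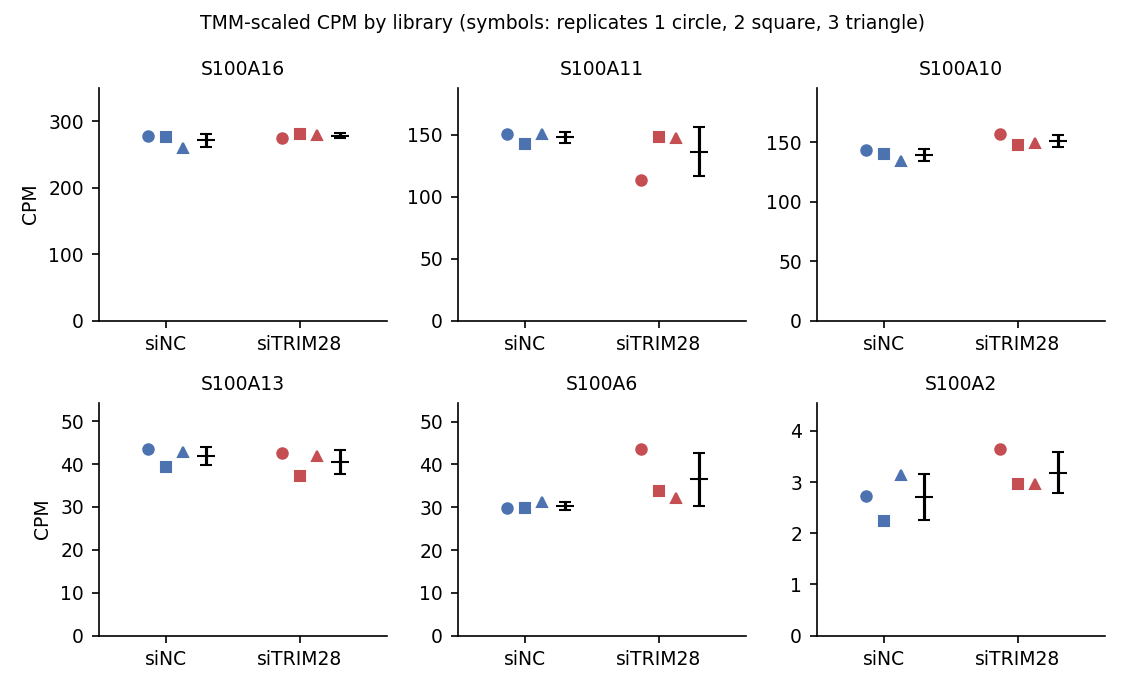
TMM-scaled CPM of the 6 tested S100 genes in each library (circle, square and triangle for replicates 1, 2 and 3), with the mean and SD of each group as a black bar (n = 3). siTRIM28 replicate 1 is the highest point for S100A6 (43.6) and the lowest for S100A11 (113), whereas the S100A16 and S100A13 groups overlap.

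S100A16 is broadly expressed and binds little calcium for an S100 protein. It has 277, 277 and 260 CPM in siNC and 274, 281 and 280 in siTRIM28, and the groups overlap. The log2 fold change is 0.04 with a 95% interval from −0.05 to 0.13 (adjusted p = 0.521). This interval treats the libraries of a group as independent, although some replicates lie close to sampling noise, as given above. Over 15 alternatives the S100A16 change spans 0.0034 to 0.07. S100A13 takes part in the release of FGF1 and interleukin 1 alpha, which lack a signal peptide. Its CPM is 43.5, 39.4 and 42.7 in siNC and 42.6, 37.3 and 41.8 in siTRIM28. Again the groups overlap, with a log2 fold change of −0.05 (95% interval −0.20 to 0.11, adjusted p = 0.642), and 0.0023 without siTRIM28 replicate 2. S100A13 overlaps CHTOP, which has 1821 and 1797 summed counts on the opposite strand, and a strand setting for the counting is not given in the sources used here. S100A2, a p53-binding S100 protein of basal and squamous epithelium, has 38, 31 and 40 counts in siNC and 51, 35 and 35 in siTRIM28. In CPM this is 2.74, 2.24 and 3.14 against 3.64, 2.96 and 2.96, and the groups overlap. Its log2 fold change of 0.25 comes with an interval from −0.17 to 0.67 (adjusted p = 0.327), which at this depth includes no change and a rise larger than that of S100A6.

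The annexins, calcium-dependent membrane-binding proteins, are the best-known partners of S100 dimers. Of 13 listed, 8 are tested, 2 rise, 3 fall and 3 are not called (62.5% called, beside 41.8% of all genes). ANXA2, the partner of S100A10, has 22000, 21994 and 20255 counts in siNC and 9093, 8113 and 7898 in siTRIM28. It falls from 1587 ± 2.54 to 667 ± 17.9 CPM, with a log2 change of −1.25 ± 0.0346 (standard error, adjusted p = 6.08e-10). Its copy ANXA2P2, a pseudogene of like sequence, has 1389 counts over the 6 libraries beside 89353 for ANXA2. ANXA6, an annexin of the plasma membrane and endosomes, falls by 1.10 on the log2 scale (adjusted p = 6.30e-09), from 250 ± 1.55 to 116 ± 3.27 CPM, and ANXA11 by 0.23 (adjusted p = 0.00281). ANXA1, the partner of S100A11, rises by 0.20 (adjusted p = 0.00134), from 347 ± 8.69 to 400 ± 8.98 CPM. ANXA5 rises by 0.11 (adjusted p = 0.0353), a call that is lost in 9 of 15 alternatives, among them those without siNC replicate 1, 2 or 3 or without siTRIM28 replicate 2 or 3. ANXA4, ANXA7 and ANXA9 are not called.

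**Figure D4:**
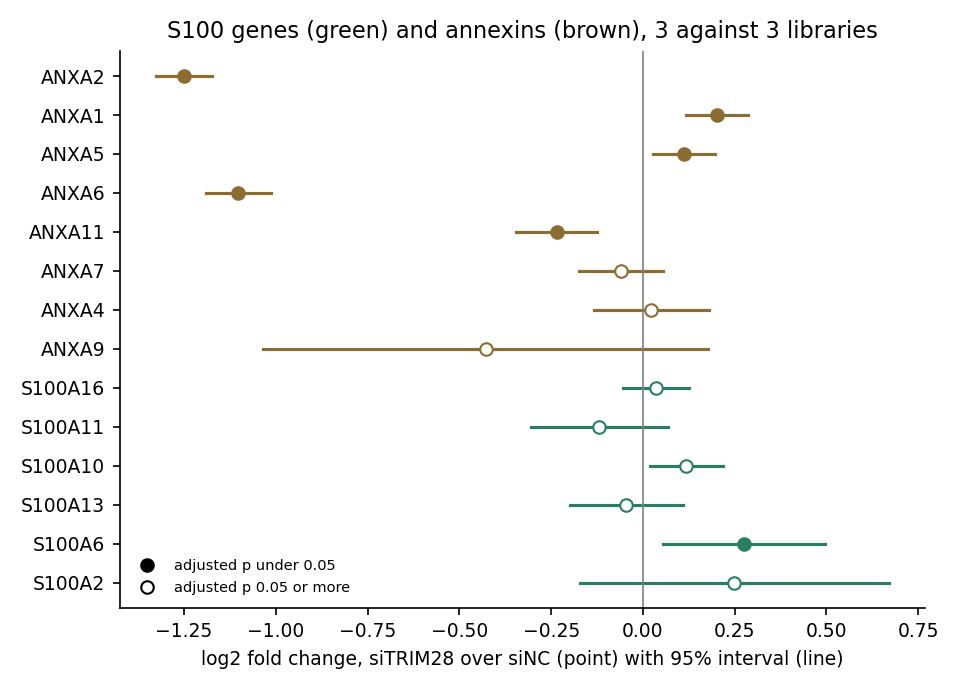
Log2 fold change of siTRIM28 over siNC (point) with its 95% interval (line) for the 6 tested S100 genes in green and the 8 tested annexins in brown, filled where the adjusted p is under 0.05. ANXA2 and ANXA6 lie beyond −1, and no S100 gene lies beyond 0.28 in either direction.

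The balance of S100A10 to ANXA2 therefore shifts. The ratio of their RPKM is 1.03, 1.01 and 0.963 in siNC and 2.76, 2.46 and 2.55 in siTRIM28, and the groups stand far apart. The log2 ratio of their CPM rises from −3.51 ± 0.0516 to −2.14 ± 0.0854 (n = 3 each), a difference of 1.37 or 2.58-fold (exact two-sided permutation test, p = 0.1, the smallest p that 3 against 3 allows, and 0.133 adjusted over 4 ratios). Leaving out any 1 library gives 1.32 to 1.41. The level of the ratio depends on the ANXA2 length of 11574 bases in the deposited table, but its change does not. These are transcript levels, and the amount of either protein is not measured.

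**Figure D5:**
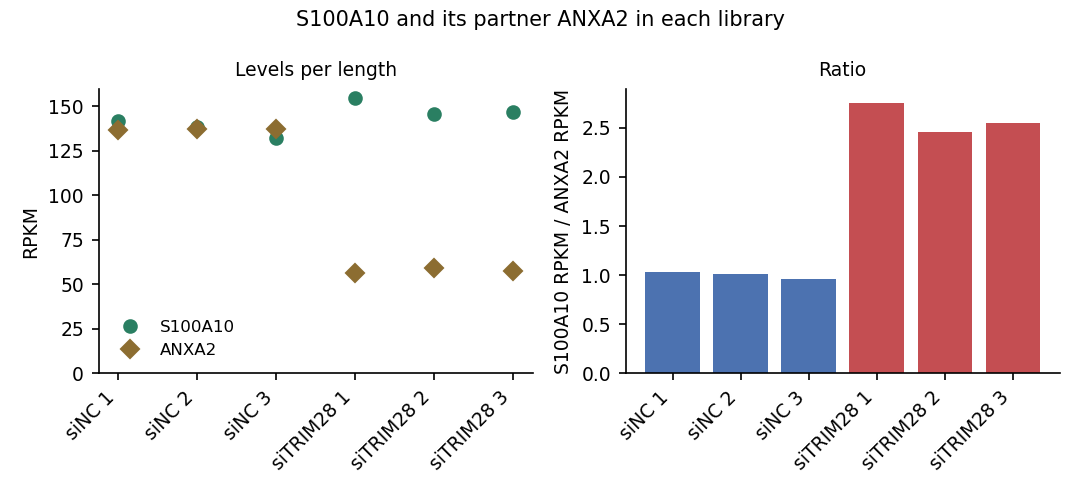
Left, RPKM of S100A10 (green circles) and ANXA2 (brown diamonds) in each library, and right, their ratio as bars from 0, blue for siNC and red for siTRIM28. The ratio is between 0.963 and 1.03 in siNC and between 2.46 and 2.76 in siTRIM28, with ANXA2 as the gene whose RPKM drops.

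The other ratios have smaller differences. S100A11 relative to ANXA1 has log2 ratios of −1.23 ± 0.0160 in siNC and −1.56 ± 0.197 in siTRIM28, a difference of −0.33 (exact permutation test, p = 0.1, adjusted 0.133), and −0.22 without siTRIM28 replicate 1. The ratio of S100A10 to its neighbour S100A11 differs by 0.25 (exact permutation test, p = 0.1, adjusted 0.133), but by 0.09 without siTRIM28 replicate 1 (p = 0.2). S100A2 relative to S100A16 differs by 0.19 with overlapping groups (exact permutation test, p = 0.4, adjusted 0.400).

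Other partners and receptors of S100 proteins were read from a list of 19 genes, of which 15 are tested, 5 rise, 4 fall and 6 are not called (60% called, beside 41.8% of all genes). AHNAK, a giant scaffold that the S100A10 complex binds, rises from 366 ± 6.16 to 553 ± 17.8 CPM, by 0.59 in log2 terms (adjusted p = 3.69e-07). PLAUR, the urokinase receptor of the plasminogen system, rises by 0.51 (adjusted p = 2.20e-05). EZR and IQGAP1, a membrane linker and a scaffold that S100P can bind, each rise by 0.38 (adjusted p = 1.66e-05 and 2.76e-05). PLAT, the tissue plasminogen activator, is low and falls by 1.16 (adjusted p = 0.00641), from 2.97 ± 0.315 to 1.32 ± 0.634 CPM. FGF1, which leaves cells with S100A13, falls from 41.9 ± 2.77 to 21.6 ± 1.45 CPM, or by 0.95 (adjusted p = 1.59e-06). BSG, a surface receptor for some S100 proteins, falls by 0.51 (adjusted p = 5.41e-06), and MYH9, the myosin heavy chain that S100A4 binds, by 0.23 (adjusted p = 1.98e-04). S100PBP, a nuclear binding protein of S100P, is not called at −0.09 on the log2 scale (95% interval −0.26 to 0.09, adjusted p = 0.420). AGER, which encodes RAGE, lies near 1 CPM and has −0.70 (adjusted p = 0.0932).

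Other EF-hand genes, which encode calmodulin and further calcium sensors and buffers, were also read. Of 35 listed, 29 are tested, 5 rise, 8 fall and 16 are not called. The share called, 44.8%, is close to the 41.8% of all genes. The largest rises are EFHD1, a mitochondrial EF-hand protein (1.60, adjusted p = 9.25e-04, from 0.670 to 2.02 CPM), HPCAL1, a calcium sensor (0.59, adjusted p = 5.97e-04), CALM3, which encodes calmodulin (0.41, adjusted p = 1.86e-06), and MYL12A, a myosin regulatory light chain (0.32, adjusted p = 0.00256). EFHD1 has 7, 10 and 10 counts in siNC and 35, 20 and 22 in siTRIM28, so only siTRIM28 reaches 10 counts in all 3 libraries. MYL12A and MYL12B are near-identical and the division of reads between them is uncertain. The largest falls are CAPNS1, the small subunit of calpain (−1.13, adjusted p = 6.06e-08), NUCB1, a Golgi calcium-binding protein (−0.46, adjusted p = 6.88e-06), EFHD2 (−0.37, adjusted p = 2.40e-04) and RCN1, of the endoplasmic reticulum (−0.29, adjusted p = 2.75e-04). Of 7 fused-type S100 genes, which join an S100 domain to long repeats in skin and hair proteins, TCHH is the single one tested. It rises from 10.4 ± 0.532 to 17.6 ± 0.549 CPM, or by 0.76 on the log2 scale (adjusted p = 1.15e-05), while FLG, FLG2, HRNR, RPTN, TCHHL1 and CRNN have 7 summed counts or fewer in each group.

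Genes within 250 kb of the S100 loci were read in the same way, 52 with a symbol of their own, of which 21 are tested, 4 rise and 7 fall (52.4% called, beside 41.8% of all genes). Around the main cluster 6 are tested and 2 rise, ILF2, an RNA-binding protein (0.25, adjusted p = 3.41e-04), and INTS3, a subunit of Integrator (0.22, adjusted p = 0.0101). The INTS3 call is lost in 2 of 15 alternatives, among them that without siNC replicate 1 (0.20, adjusted p = 0.0543). Around S100A10 and S100A11 6 are tested, 2 rise and 2 fall, with TCHH and TDRKH-AS1 as the rises. TDRKH-AS1 (0.69, adjusted p = 0.0268) lies near 2 to 3 CPM, and its call is lost in 4 of 15 alternatives. Among them are those without siNC replicate 2 (0.51, adjusted p = 0.111) or siTRIM28 replicate 3 (0.54, adjusted p = 0.110), and DESeq2 (adjusted p = 0.0788). Around S100P 9 are tested, 5 of them fall (55.6%) and 0 rise, beside 20.5% lower and 21.3% higher among all genes. MRFAP1, a protein that binds chromatin proteins of the MORF4 family, falls from 290 ± 5.13 to 79.4 ± 0.254 CPM (−1.87, adjusted p = 1.21e-10), beside TBC1D14 (−1.07, adjusted p = 1.12e-06), MRFAP1L1 (−0.97, adjusted p = 7.80e-08) and MRFAP1L2 (−0.56, adjusted p = 1.90e-04). MRFAP1, MRFAP1L1 and MRFAP1L2 share a family name, and the division of reads between them was not tested. S100P itself stays under the floor in the midst of these neighbours.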

How the data were processed

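The deposited table holds the authors' unnormalized read counts for 78932 genes, with GRCh38 coordinates and lengths, 1 column per library. The submitters' processing notes name fastp 0.23.1, STAR 2.7.6a and featureCounts. The annotation release and strand setting are not given in the sources used here. A deposited RPKM table of the authors' differentially expressed genes was not used.

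Counts were scaled by TMM and compared with edgeR 4.0.16 in R 4.3.3 (quasi-likelihood test, Benjamini-Hochberg adjustment over 18474 genes, threshold 0.05). RPKM was computed from TMM-scaled CPM and the deposited lengths. Log2 ratios of CPM (prior count 2) were compared by exact permutation. Of 9 planned ratios 5 were not computed, because a gene lay under the count minimum. Depth was 11712623 to 14018052 counts. Alternatives were other scalings, DESeq2 1.42.0, limma-voom (limma 3.58.1), other count minimums, a replicate block, libraries left out or summed, and a threshold of 0.01. The values show no pairing by replicate number.

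Members and lists were chosen with earlier results of these data known. Named are all members, TRIM28, ANXA1, ANXA2, S100PBP, and up to 4 rises and 4 falls per list with the largest called change. AGER, CACYBP, markers and overlapping genes were named after their values were seen. Promoters are RefSeq windows, and all 10 symbols matched. Figures were made with Python 3.11.15 and matplotlib 3.10.9.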

Additional observations from a re-analysis of the deposited data

How the results depend on the processing

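The count of tested S100 genes called higher, 1 as reported, is 2 with upper-quartile scaling, total-count scaling, limma-voom or at least 10 counts in every library, where S100A10 joins S100A6. It is 0 with DESeq2, with each close pair of libraries summed into 1 (S100A6 0.32, adjusted p = 0.0934) and at an adjusted p under 0.01, and it lies between 0 and 1 when 1 library is left out. The count called lower is 0 under all of these. S100A11 turns to 0.000388 without siTRIM28 replicate 1 (−0.19 to 0.000388 over the libraries left out) and S100A13 to 0.0023 without siTRIM28 replicate 2 (−0.0891 to 0.0023), neither of them called in any alternative. The uncalled marker CD68 turns to −0.0132 without siTRIM28 replicate 2 (−0.0132 to 0.0435 over the libraries left out) and to −0.0015 with close pairs summed. The changes of S100A6 span 0.13 to 0.35 and those of ANXA2 −1.28 to −1.22. The counts of called annexins (4 to 6), partners (8 to 9), other EF-hand genes (11 to 17) and neighbours (9 to 12) stay within 1.5 times the reported ones. All changed genes number 5393 to 8130. Median shifts of all genes under the other scalings are 0.01 to 0.05 on the log2 scale.

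The labels give both groups replicate numbers 1 to 3, but deviations of same-numbered libraries correlate at 0.0523, −0.0118 and 0.0374. Those of differently numbered libraries correlate at −0.0655 to 0.0387. The values thus show no pairing, but with 3 libraries per group they cannot tell whether same-numbered libraries were handled together. With the replicate block 7910 genes change, 1 S100 gene is higher and 0 are lower, and among the named genes ANXA5 loses its call (adjusted p = 0.0648). The block gives ratio p-values of 0.25 to 0.5 (exact sign flips, smallest possible p 0.25).

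Low depth limits S100A2, S100A3, S100A4, S100A14 and S100P. With 3 libraries per group, the exact permutation test of a ratio cannot reach 0.05.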
